A study of Mus musculus with 12 samples.

Results

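The 10 genes described here encode the signaling core of the T cell receptor in CD8+ T cells: the CD3 chains *Cd3e*, *Cd3d*, *Cd3g* and *Cd247*, the CD8 coreceptor chains *Cd8a* and *Cd8b1*, the kinases *Lck* and *Zap70*, and the adaptors *Lat* and *Lcp2* (SLP-76). They were chosen by name for their place in this pathway, and all 10 were found among the 25860 genes listed. The antigen-binding chains of the receptor have almost no cytoplasmic tail and signal through the CD3 chains, whose tails carry immunoreceptor tyrosine-based activation motifs (ITAMs). LCK, held at the coreceptor, phosphorylates these motifs, ZAP-70 docks on them and phosphorylates LAT and SLP-76, and those adaptors gather the enzymes that start calcium, Ras and NF-κB signaling. In autoimmune diabetes this machinery reads β cell peptides presented by MHC class I.

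RNA-seq and ATAC-seq (a transposase cuts accessible DNA, so read density measures chromatin opening) were each performed on 3 libraries per genotype from CD8+ progenitor T cells (T_prog_) of pancreatic lymph nodes. Of the genotypes compared, one is called NOD-TCR 8.3 WT and the other NOD-TCR 8.3 UTX TCD, and in both the T cells carry a transgenic receptor for the islet antigen IGRP on a nonobese diabetic background. UTX TCD mice have both copies of *Kdm6a*, the gene of the histone demethylase UTX, flanked by loxP sites and carry Lck-Cre, a Cre recombinase driven by *Lck* promoter sequence. Littermates without Cre are described as the WT controls of the parent line, NOD-UTX TCD. For the TCR 8.3 line, the WT mice are described only as lacking the T cell deficiency in UTX. If they also lack Cre, the transgene and the deletion were never separated. Which of the *Lck* promoters drives Cre is not given in the sources used here. Mice were female, and their age at sorting for these libraries is not given in the sources used here. The gate is Ly108+CXCR6- in the sample labels and Ly108+CD39- in the study's text.

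The RNA-seq libraries held 146456724, 144503203 and 193568919 counted reads in WT replicates 1 to 3 and 61512402, 175462433 and 187275082 in UTX TCD replicates 1 to 3. The 3 deepest libraries (WT replicate 3 and UTX TCD replicates 2 and 3) stood apart from the other 3 in 79 genes (adjusted p under 0.05, limma with genotype as the other term). The 10 receptor genes were not among the 79 (their lowest adjusted p was 0.329, for *Cd3e*), while segments of the receptor loci were. *Trbv26* was counted at 1866, 1927 and 6488 in WT libraries and 1993, 6035 and 5854 in UTX TCD libraries, and *Trav4d-4* at 0, 2.96 and 406 in WT libraries and 0, 378 and 441 in UTX TCD libraries. The labels name no batch, each set holds libraries of both genotypes, and this split was chosen after the data were seen.

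*Kdm6a* was counted at 28365, 28949 and 29172 normalized counts (reads divided by 1 size factor per library) in WT libraries and at 24158, 24792 and 24579 in UTX TCD libraries. Every UTX TCD library lay below every WT library (log2 fold change -0.23, UTX TCD over WT, limma adjusted p = 0.00114, SE 0.04), although a count over the whole gene does not show whether the floxed exons were read. Among the gate and progenitor markers, *Tcf7* (TCF1) was counted at 227810 to 244276 in WT libraries and 220872 to 229604 in UTX TCD libraries, with overlapping genotypes. *Slamf6* (Ly108) spanned 23305 to 34096 in WT and 30980 to 36665 in UTX TCD libraries (passing only without WT replicate 2, adjusted p = 0.00921, or with depth as a term, 0.0204), and *Entpd1* (CD39) stayed under 30 counts in all 6 libraries. *Cxcr6*, the other gate marker, was not absent, at 12757, 9619 and 13724 in WT libraries and 5286, 5994 and 5695 in UTX TCD libraries (log2 fold change -1.07, adjusted p = 0.000131). *Cd44* was at 11441 to 12194 in WT libraries and 12481 to 14191 in UTX TCD libraries (log2 fold change 0.17, adjusted p = 0.0322; lost without any one of 5 libraries, all but UTX TCD replicate 2, at 0.053 to 0.102). These are bulk samples, so fewer cells of a type and less RNA per cell cannot be told apart.

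Of the 10 genes, all of which passed the filter of a mean normalized count of at least 10, limma placed 7 lower and 2 higher in UTX TCD cells at an adjusted p under 0.05. Across all 14459 genes tested, 20.5% were lower and 20.2% higher by the same rule. Among the 1019 genes at least as abundant as *Zap70*, which has the lowest mean count of the 10, 33.2% were lower and 19.8% higher. No receptor gene also passed an absolute log2 fold change over 0.5, a limit that 7.05% of all tested genes passed downward and 10.5% upward. By edgeR and DESeq2, too, 0 of the 10 passed it. The genes with an unadjusted p under 0.05 by limma were the same 9 that passed the adjusted p. Genotypes did not overlap for 9 of the genes, 7 lower and 2 higher, against 26.1% lower and 25.8% higher of all genes tested. The shifts were small, from 1.30-fold lower to 1.17-fold higher. The median absolute log2 fold change was 0.208 for the 10 genes, 0.209 for all genes tested and 0.155 for the genes as abundant as *Zap70*. The 10 genes took 0.787% ± 0.016 (SD, n = 3) of the counted reads in WT libraries and 0.773% ± 0.036 (SD, n = 3) in UTX TCD libraries.

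**Figure D1:**
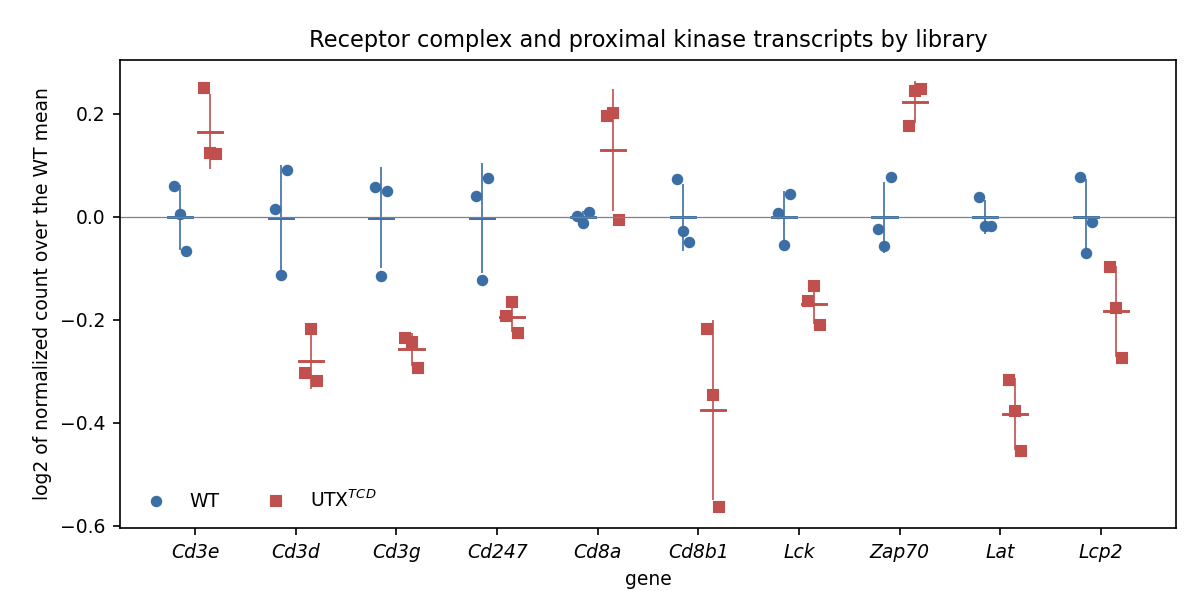
Normalized counts of the 10 genes in each library, as the log2 ratio to the WT mean of that gene (y axis). Circles are the 3 WT and squares the 3 UTX TCD libraries, horizontal bars the means of the log2 ratios and vertical bars ± 1 SD. For 9 genes the genotypes do not overlap, and *Cd3e* and *Zap70* lie above WT while 7 genes lie below it.

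The CD3 chains moved in different directions. *Cd3e*, whose product pairs with both CD3δ and CD3γ, was counted at 145172, 139763 and 133010 in WT libraries and 165614, 151798 and 151586 in UTX TCD libraries. All 3 UTX TCD libraries lay above all 3 WT libraries, a log2 fold change of 0.17 (adjusted p = 0.0414, SE 0.06). This call was lost without any one of UTX TCD replicates 1 and 2 and the 3 WT replicates, with adjusted p values from 0.0548 to 0.155 (0.00648 to 0.155 over all 16 alternatives).

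*Cd3d*, the CD3δ chain, was counted at 69275, 63369 and 72913 in WT libraries and 55510, 58879 and 54935 in UTX TCD libraries. Its partner *Cd3g*, the CD3γ chain, was counted at 130874, 116125 and 130249 in WT libraries and 106803, 106199 and 102569 in UTX TCD libraries. For both genes the genotypes were fully separated, with WT replicate 2 the lowest of the WT libraries. The log2 fold changes were -0.28 (adjusted p = 0.00485, SE 0.06) for *Cd3d* and -0.26 (adjusted p = 0.00631, SE 0.06) for *Cd3g*, and both calls held in all 16 alternatives tried, with adjusted p up to 0.0218 and 0.0327. *Cd247*, the ζ chain with the most ITAMs per molecule, was counted at 70254, 62687 and 71913 in WT libraries and 59746, 60855 and 58419 in UTX TCD libraries. WT replicate 2 again came close to the UTX TCD libraries without overlapping them, at a log2 fold change of -0.19 (adjusted p = 0.0241, SE 0.06). Leaving out WT replicate 1 or 3 or any UTX TCD replicate raised its adjusted p to between 0.0523 and 0.0911, and scaling the libraries to the same sum to 0.0568 (range over the alternatives 0.00255 to 0.0911).

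The balance between CD3ε and its partners can be read inside each library, free of the scaling between libraries. Per kb of exon, the log2 ratio of *Cd3e* to *Cd3g* was -0.42, -0.30 and -0.54 in WT libraries and 0.06, -0.05 and -0.01 in UTX TCD libraries. That is, per kb *Cd3g* was above *Cd3e* in every WT library and level with it in UTX TCD libraries. This order rests on the pooled exon lengths of 1023 bp for *Cd3g* and 1517 bp for *Cd3e*. In normalized counts *Cd3e* was the higher in every library. The ratio of *Cd3e* to *Cd3d* was 1.06, 1.14 and 0.86 in WT libraries and 1.57, 1.36 and 1.46 in UTX TCD libraries. Genotypes did not overlap in either ratio; the gene pairs were chosen after their values were seen, and no test was made.

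The 3 CD3 genes lie side by side on chromosome 9 (mm10) in the order *Cd3g* (44969572-44980431, minus strand), *Cd3d* (44981769-44987052, plus strand) and *Cd3e* (44998735-45009663, minus strand). *Cd3g* and *Cd3d* are transcribed away from each other and are 1337 bp apart, and these 2 neighbors fell while *Cd3e*, 11682 bp further on, rose. Next to the cluster, the ubiquitin ligase gene *Ube4a* rose (log2 fold change 0.18, adjusted p = 0.00715) and *Mpzl2* was under the filter. Each CD3 gene of the cluster had 1 listed ATAC-seq peak, and all 3 were slightly higher in UTX TCD cells, opposite to the transcripts of *Cd3d* and *Cd3g*. At the *Cd3d* promoter (chr9:44981543-44981943, over the start site), the authors' mean log2 concentration was 10.94 in WT libraries and 11.18 in UTX TCD libraries. The peak in intron 2 of *Cd3e* (chr9:45008286-45008686) had authors' means of 9.79 and 10.02, and the peak in exon 4 of *Cd3g* (chr9:44973371-44973771) of 9.20 and 9.54.

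Here and below, a listed peak is a window of fixed length that the authors placed in their table because it differed between genotypes, so its difference is a description and carries no replicate spread. The table gives no window that did not differ, and a gene without a listed peak may still be open. The 10 genes had 29 listed peaks, 18 higher and 11 lower in UTX TCD cells, or 62.1% higher. Among all 23932 listed peaks, 68.8% were higher. Counting instead all listed peaks within 50 kb of the gene bodies gave 42, 21 higher and 21 lower. Without *Lat*, which had none, each gene had between 1 and 7, and the median absolute log2 difference was 0.388 against 0.709 for all listed peaks. These medians were not matched for signal. Most of the 29 peaks had a WT mean above 7.69, the median WT mean of all listed peaks, and peaks with a higher mean can be listed at smaller differences.

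The *Cd3d* promoter is shown because a listed peak covers it while the transcript fell. The RefSeq window (GRCm38.p6, chr9:44981536-44981835, plus strand, from 250 bases before to 50 after the start) has capitals at the ETS core AGGAAG, read on either strand; it held 2 of these and none of the RUNX core TGTGGT. Of 32851 promoter windows of the same length, 35.4% held the ETS core and 16.8% the RUNX core. A match marks letters and not a bound site.
*Cd3d* promoter: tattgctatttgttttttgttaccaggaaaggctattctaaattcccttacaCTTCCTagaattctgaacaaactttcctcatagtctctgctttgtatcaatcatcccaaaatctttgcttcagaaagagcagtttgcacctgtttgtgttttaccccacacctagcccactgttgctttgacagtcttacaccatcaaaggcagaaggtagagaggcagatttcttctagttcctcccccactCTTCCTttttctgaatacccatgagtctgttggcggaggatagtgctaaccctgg

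The CD8 coreceptor chains separated in the same libraries. *Cd8a*, which can pair with itself or with CD8β, was counted at 272448, 270012 and 274004 in WT libraries and 311527, 313000 and 270975 in UTX TCD libraries. UTX TCD replicate 3 fell inside the WT range, and the gene did not pass (log2 fold change 0.13, 95% interval -0.02 to 0.28, adjusted p = 0.146). Without that replicate it passed as higher (adjusted p = 0.0145), as it did with the libraries scaled to the same sum (adjusted p = 0.0302; range over the alternatives 0.0145 to 0.384). *Cd8b1*, the CD8β chain, was counted at 148808, 138851 and 136749 in WT libraries and 121688, 111349 and 95740 in UTX TCD libraries. No UTX TCD library reached the lowest WT library, and the log2 fold change was -0.37 (adjusted p = 0.00634, SE 0.08). UTX TCD replicate 3 was the lowest UTX TCD library for both chains. Per kb of exon, the log2 ratio of *Cd8b1* to *Cd8a* was 0.21, 0.12 and 0.08 in WT libraries and -0.28, -0.41 and -0.42 in UTX TCD libraries. The ratio thus fell without overlap of the genotypes. Which chain was the more abundant rests on the pooled exon lengths of 1481 bp for *Cd8b1* and 3130 bp for *Cd8a*. In normalized counts *Cd8a* was the higher in every library.

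*Cd8b1* (chr6:71322788-71337492) lies 35934 bp before *Cd8a* (chr6:71373427-71379171) on the same strand, and their 8 listed peaks formed blocks along the locus. Upstream of *Cd8b1*, the peak at chr6:71316447-71316847 was higher in UTX TCD cells, with authors' means of 9.62 in WT libraries and 9.98 in UTX TCD. The next 4 were all lower: 1 in intron 3 of *Cd8b1* (chr6:71331430-71331830, 10.08 and 9.56) and 3 between the genes, starting at 71339322 (10.66 and 10.23), 71342908 (11.76 and 11.50) and 71353696 (11.31 and 11.10). Closer to *Cd8a*, the peak 3617 bp before the gene (chr6:71369410-71369810) rose from 11.20 to 11.55, and the peak in its last exon (chr6:71376732-71377132) from 10.46 to 10.70. The lower block thus ran from inside *Cd8b1* to 19331 bp before *Cd8a*, and the higher pair sat at *Cd8a*. The last of the 8, lower at 7.70 and 7.27, lay in intron 4 of *Rmnd5a*, the gene after *Cd8a*, whose transcript rose (log2 fold change 0.15, adjusted p = 0.0243). That call was lost without WT replicate 1 or UTX TCD replicate 1 or 2 (adjusted p from 0.0553 to 0.11). Further upstream of *Cd8b1*, a peak assigned to *Gm1070* (chr6:71302312-71302712) was lower, at 9.56 and 9.29, and *Gm1070* was counted at 27.7 to 76.7 in the 6 libraries.

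The kinases also moved apart. *Lck*, the Src family kinase bound to the coreceptor, was counted at 176303, 168825 and 180892 in WT libraries and 156546, 159703 and 151489 in UTX TCD libraries. The genotypes did not overlap, and the log2 fold change was -0.17 (adjusted p = 0.0225, SE 0.05). Without UTX TCD replicate 1, WT replicate 1 or WT replicate 3 the adjusted p was 0.0644, 0.0809 and 0.0837, and it was 0.0602 with the libraries scaled to the same sum and 0.0516 with the replicate number as a block (range over the alternatives 0.00301 to 0.0837). *Zap70*, which binds the phosphorylated ITAMs, was counted at 27914, 27303 and 29936 in WT libraries and 32072, 33625 and 33692 in UTX TCD libraries. Here the lowest UTX TCD library exceeded the highest WT library (log2 fold change 0.22, adjusted p = 0.00509, SE 0.05), and the call held in all 16 alternatives. Per kb of exon, the log2 ratio of *Zap70* to *Lck* was -2.88, -2.85 and -2.81 in WT libraries and -2.51, -2.47 and -2.39 in UTX TCD libraries.

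The only listed peak of *Lck* was at its promoter, and it went the other way from the transcript. At chr4:129558512-129558912, just upstream of the inner of the 2 annotated start sites (129558372, minus strand), the authors' mean log2 concentration was 11.96 in WT libraries and 14.74 in UTX TCD libraries. The difference of 2.79 corresponds to a 6.89-fold higher mean. No other of the 23932 listed peaks had a UTX TCD mean as high, the next being 13.26, while 29 had a higher WT mean. Among the 30 listed peaks with a WT mean at least that of the *Lck* peak, the largest difference apart from it was 0.60. A larger difference than at *Lck* was listed for 205 peaks, and none of those had a WT mean above 7.17. UTX TCD mice carry *Lck* promoter sequence in the Lck-Cre transgene, and WT mice do not if they lack Cre as in the parent line. Reads from the transgene, reads from the endogenous promoter and the loss of UTX therefore cannot be told apart at this window. No peak was listed at the outer start site (129573641). Within 50 kb of *Lck*, 3 listed peaks assigned to other genes differed by -0.47, 1.07 and -0.30. Of the neighboring genes, *Hdac1* (log2 fold change -0.02, adjusted p = 0.759) and *Fam167b* (26.7 to 47.2 counts) did not pass.

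**Figure D2:**
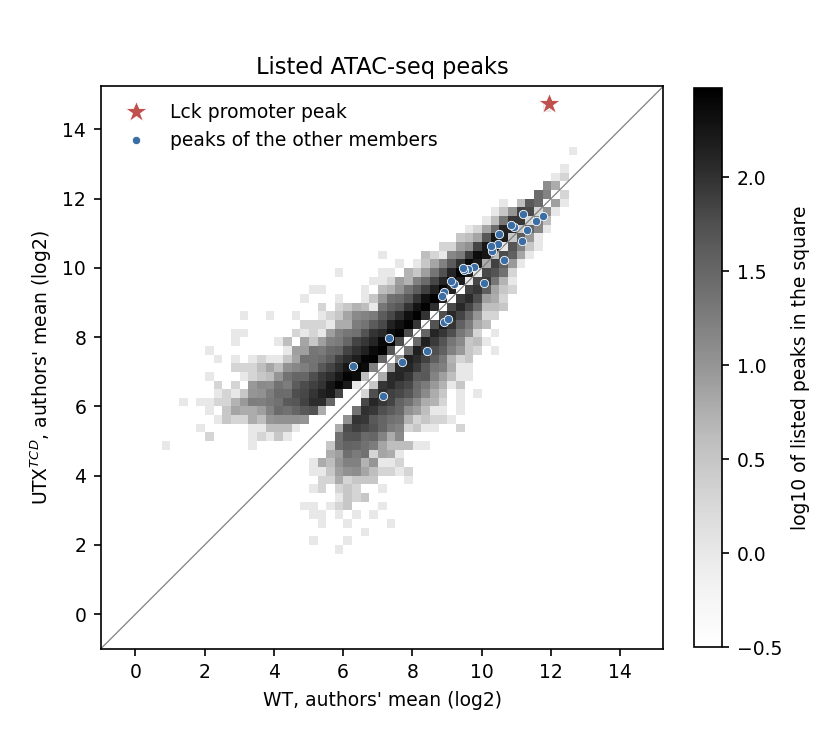
All 23932 listed ATAC-seq peaks by the authors' mean log2 concentration in WT (x axis) and UTX TCD (y axis). Grey squares give the number of peaks on a log10 scale, the line marks equal means, dots are the 28 peaks of *Cd3e*, *Cd3d*, *Cd3g*, *Cd247*, *Cd8a*, *Cd8b1*, *Zap70* and *Lcp2*, and the star is the *Lck* promoter peak at 11.96 and 14.74, above every other listed peak in UTX TCD.

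The central 300 bases of the *Lck* peak are shown as the window with the highest listed mean in UTX TCD libraries (GRCm38.p6, chr4:129558563-129558862, minus strand). The assembly is that of another strain, and bases that differ in NOD mice were not checked. Capitals mark the RUNX core TGTGGT on either strand, present 1 time here and in 39.7% of the 23907 listed peaks of the full fixed length on the assembled chromosomes; the ETS core, in 56.5% of them, was not among these letters.
*Lck* peak: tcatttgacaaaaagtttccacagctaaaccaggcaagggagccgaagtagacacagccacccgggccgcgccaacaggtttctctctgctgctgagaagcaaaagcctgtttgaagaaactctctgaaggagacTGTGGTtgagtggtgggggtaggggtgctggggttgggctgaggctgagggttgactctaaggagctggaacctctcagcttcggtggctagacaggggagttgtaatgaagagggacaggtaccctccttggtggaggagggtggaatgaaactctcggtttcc

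*Zap70* had 5 listed peaks on chromosome 1. Those at or near its inner start sites were higher in UTX TCD cells, as the transcript was. The authors' means were 8.92 in WT libraries and 9.30 in UTX TCD at chr1:36764245-36764645, and 10.86 and 11.25 at chr1:36766846-36767246. They were 6.29 and 7.15 at chr1:36777935-36778335, which ends before the start at 36778984. No peak was listed at the outermost start site (36761798). A peak 1.85 kb past the gene rose from 8.84 to 9.20. The remaining peak, in intron 31 of the next gene *Tmem131*, was lower at 7.15 and 6.29, and *Tmem131* itself overlapped between genotypes (33394 to 37381 counts). On the other side, 29.3 kb from *Zap70*, a peak assigned to *4933424G06Rik* was lower (difference -1.97), and that gene was counted at 9.61 to 17.8.

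The ζ chain gene *Cd247* spans 91202 bp of chromosome 1 (165779952-165871153), and its 5 listed peaks all lay in intron 1. Moving into the intron, the differences (UTX TCD minus WT, log2) were 0.47, -0.46, 0.20, -0.38 and -0.24, so higher and lower windows were interspersed. The first 3 began at 165803146, 165822026 and 165837501, and the last 2, the most accessible of the 5 in WT with authors' means of 11.16 and 11.58, at 165840804 and 165848947. *Pou2f1*, which overlaps the end of the gene on the other strand, rose (log2 fold change 0.13, adjusted p = 0.0301), a call lost without any one of 5 libraries (all but UTX TCD replicate 3) and with the replicate number as a block, at adjusted p from 0.0513 to 0.113. The strand setting of the counting is not stated, so reads in the overlap are uncertain. *Creg1*, on the near side, did not pass (log2 fold change -0.09, adjusted p = 0.206).

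Both adaptors were lower. *Lat*, the membrane scaffold that ZAP-70 phosphorylates, was counted at 68549, 65930 and 65927 in WT libraries and 53607, 51441 and 48718 in UTX TCD libraries. The gap between the genotypes was wider than the range within either, and the log2 fold change of -0.38 (adjusted p = 0.000273, SE 0.05) was the lowest of the 10 genes. It held in all 16 alternatives, with values from -0.42 to -0.32. *Lcp2*, which encodes the cytosolic adaptor SLP-76, was counted at 58587, 52856 and 55147 in WT libraries and 51862, 49095 and 45903 in UTX TCD libraries. UTX TCD replicate 1 lay just below the lowest WT library, and the log2 fold change was -0.18 (adjusted p = 0.0325, SE 0.06). Its adjusted p rose to 0.0809 without UTX TCD replicate 2, 0.0851 without UTX TCD replicate 3, 0.127 without WT replicate 1 and 0.0677 without WT replicate 3, to 0.113 with the libraries scaled to the same sum, and to 0.0599 with the depth of the libraries as a second term (range over the alternatives 0.0156 to 0.127).

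*Lat* had no listed peak of its own, but 5 lay within 50 kb past its 3′ end (chr7:126363827-126369705, minus strand), in the interval up to *Sbk1*, and every one was lower in UTX TCD cells. They were assigned to the microRNA gene *Mir7058*. From the farthest to the nearest, they ended 39.6, 17.8, 16.3, 9.13 and 6.00 kb from *Lat*. The authors' means were 8.70 in WT libraries and 8.33 in UTX TCD at chr7:126323871-126324271, 8.21 and 7.22 at chr7:126345637-126346037, and 7.16 and 5.90 at chr7:126347092-126347492. At the nearest pair they were 7.70 and 7.30 (chr7:126354300-126354700) and 7.87 and 7.26 (chr7:126357423-126357823).

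The genes on both sides of this interval were read too. *Sbk1*, a kinase gene whose end is 68810 bp from *Lat*, was counted at 20166, 22581 and 22408 in WT libraries and 14967, 16015 and 14397 in UTX TCD libraries (log2 fold change -0.52, adjusted p = 0.000156). Its genotypes were far apart, and its call held in all 16 alternatives. *Spns1*, which ends 354 bp from the start of *Lat* on the same strand, was counted at 8170, 8667 and 7896 in WT libraries and 7803, 7404 and 6873 in UTX TCD libraries. These did not overlap either, but the gene did not pass (log2 fold change -0.17, adjusted p = 0.0515); it did without UTX TCD replicate 1 (adjusted p = 0.0304), with the replicate number as a block (0.0371), by DESeq2 (0.043) and with a filter at a mean of 50 (0.0495; range over the alternatives 0.0304 to 0.228). Reads that run past the end of *Spns1* into *Lat* were not examined.

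**Figure D3:**
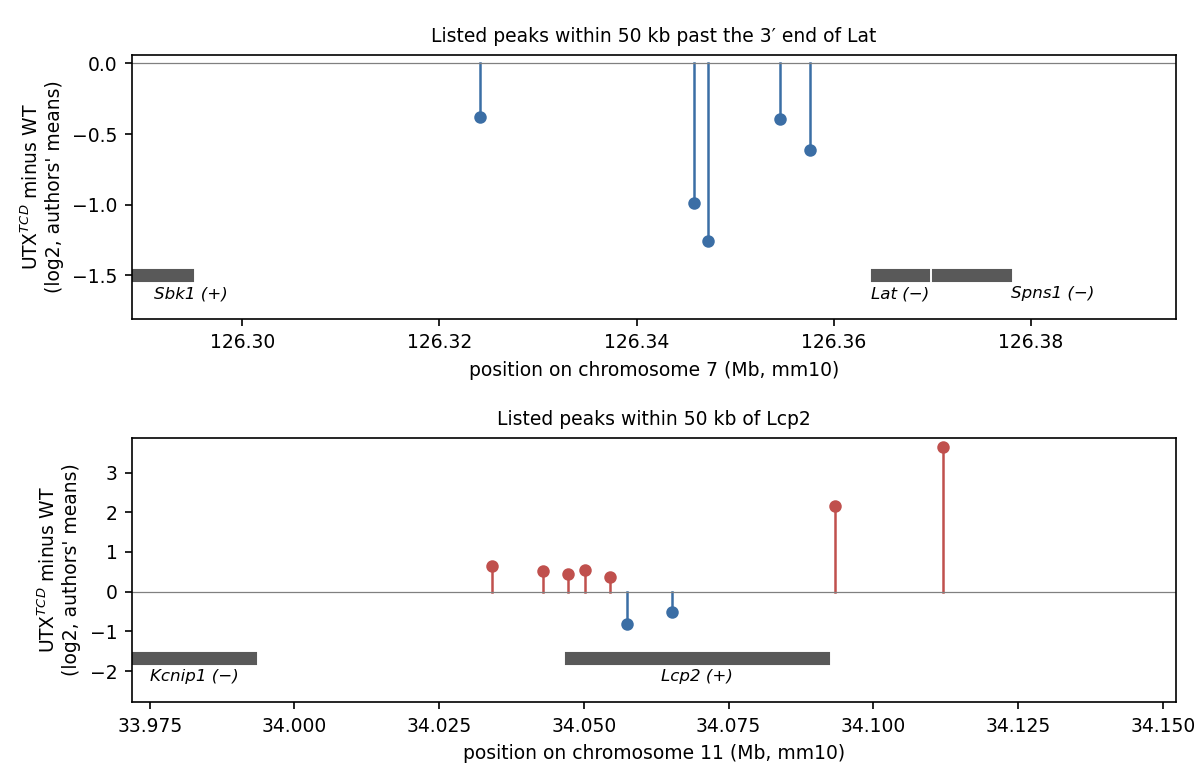
Listed ATAC-seq peaks within 50 kb past the 3′ end of *Lat* (top) and within 50 kb of *Lcp2* (bottom) by position in mm10 (x axis, Mb) and difference of the authors' means, UTX TCD minus WT (y axis, log2). Bars mark genes with their strand. All 5 peaks drawn at *Lat* lie below 0, and those past the end of *Lcp2* lie above 0, at 2.15 and 3.65.

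*Lcp2* (chr11:34046928-34092281) showed a different arrangement. Of its 7 listed peaks, the 5 from 12.6 kb before the gene to the early part of intron 3 were higher in UTX TCD cells, by 0.36 to 0.65 on the log2 scale, including the one over exon 1 (chr11:34047018-34047418, authors' means 9.49 in WT libraries and 9.93 in UTX TCD). The other 2, further along intron 3 of 20, were lower: chr11:34057198-34057598 at 8.44 and 7.61 and chr11:34065003-34065403 at 9.02 and 8.52. Past the end of the gene, 2 more were assigned to the noncoding gene *4930469K13Rik*. The one 0.883 kb beyond *Lcp2* (chr11:34093164-34093564) rose from 8.29 to 10.43, a 4.42-fold higher mean, and the one 19.6 kb beyond (chr11:34111865-34112265) from 2.56 to 6.22. The transcript fell while 7 of the 9 listed peaks within 50 kb rose, where 68.8% of all listed peaks were higher. *Kcnip1* and *Foxi1*, the flanking coding genes, were under the filter.

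The peak that differs most beside *Lat* and the peak 0.883 kb beyond *Lcp2* are given by their central 300 bases (GRCm38.p6, plus strand). At *Lcp2*, the window with the largest difference was left out for its low WT mean of 2.56. The *Lat* window, with a WT mean of 7.16, was kept. Capitals mark, as before, ETS and RUNX cores on either strand. The window near *Lat* (chr7:126347143-126347442), lower in UTX TCD cells, held 1 ETS and 2 RUNX cores, and 140 of its bases are masked as repeats in the assembly. The window past *Lcp2* (chr11:34093215-34093514), higher in UTX TCD cells, held neither.
Near *Lat*: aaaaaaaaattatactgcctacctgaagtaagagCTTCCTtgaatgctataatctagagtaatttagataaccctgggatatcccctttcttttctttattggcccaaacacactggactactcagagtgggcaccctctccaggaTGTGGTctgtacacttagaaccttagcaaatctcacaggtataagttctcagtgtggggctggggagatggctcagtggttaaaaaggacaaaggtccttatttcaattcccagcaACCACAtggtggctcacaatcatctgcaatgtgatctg
Past *Lcp2*: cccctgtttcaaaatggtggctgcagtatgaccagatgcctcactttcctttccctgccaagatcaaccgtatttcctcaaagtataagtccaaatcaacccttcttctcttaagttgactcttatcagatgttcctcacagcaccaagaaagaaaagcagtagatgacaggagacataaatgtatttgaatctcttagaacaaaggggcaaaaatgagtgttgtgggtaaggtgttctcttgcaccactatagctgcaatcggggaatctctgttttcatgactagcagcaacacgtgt

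Levels of the 10 genes were compared per kb of exon, pooling the exons of all annotated transcripts. In WT cells *Cd3g* was the most abundant at 122922 ± 8153 (SD, n = 3) normalized counts per kb, followed by *Cd8b1* at 95523 ± 4350, *Cd3e* at 91836 ± 4017 and *Cd8a* at 86950 ± 643. *Cd8b1* and *Cd3e* did not differ beyond their SDs, while *Cd3g* stood above both. *Lck* followed at 68359 ± 2375, then *Cd3d* at 45317 ± 3186 and *Lat* at 42549 ± 964, which did not differ beyond their spread. The least abundant were *Lcp2* at 15331 ± 796, *Cd247* at 10908 ± 786 and *Zap70* at 9506 ± 461. In UTX TCD cells *Cd3e* at 103054 ± 5299 and *Cd3g* at 102826 ± 2239 were level, *Cd8a* at 95368 ± 7620 stood above *Cd8b1* at 73999 ± 8820, and *Zap70* at 11095 ± 307 stood above *Cd247* at 9533 ± 195 (each SD, n = 3). The others kept their places there: *Lck* at 60785 ± 1615, *Cd3d* at 37329 ± 1409, *Lat* at 32647 ± 1561 and *Lcp2* at 13516 ± 823. A pooled exon length understates genes with many alternative exons, such as *Cd247* with 6260 bp. The order of genes at near levels, such as *Cd8a* and *Cd8b1* or *Cd3e* and *Cd3g*, rests on these lengths.

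The constant genes of the antigen-binding chains did not pass. *Trac* was counted at 108921, 101289 and 100645 in WT libraries and 107935, 100407 and 100214 in UTX TCD libraries (adjusted p = 0.888), and *Trbc1* at 49066 to 54257 and 41742 to 51673 (adjusted p = 0.165; 0.0278 without UTX TCD replicate 1). *Trbc2*, at 140197, 132147 and 103988 in WT libraries and 141860, 102552 and 100351 in UTX TCD libraries, did not pass by genotype (adjusted p = 0.499). It was lowest in the 3 deepest libraries, a split chosen after the data were seen, and within the deeper and shallower sets the genotypes differed by -0.04 and 0.06 on the log2 scale. *Trbv13-3*, a β variable segment, was counted at 65368 to 69601 in WT libraries and 70066 to 73391 in UTX TCD libraries without overlap, and did not pass (adjusted p = 0.146; 0.012 with the libraries scaled to the same sum; range over the alternatives 0.012 to 0.325). Within the same 2 sets of libraries, each of the 10 receptor genes kept its direction. For the 9 genes whose genotypes did not overlap this was fixed in advance, and only *Cd8a* could have changed.

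Among the γ and δ constant genes, *Trgc4* fell from 541, 621 and 387 in WT to 171, 159 and 320 in UTX TCD libraries (log2 fold change -1.29, adjusted p = 0.0052). *Trgc2* went from 130 to 218 in WT to 65.2 to 133 in UTX TCD libraries, overlapping, with an adjusted p of 0.0408 that was lost in 9 of the 16 alternatives, among them edgeR and leaving out WT replicate 1 or 2 or UTX TCD replicate 1 or 2 (up to 0.131). *Trgc1* was at 86.5 to 160 in all libraries. *Trdc* lies inside the *Tra* locus and was counted at 57643 to 64851 in WT libraries and 51937 to 57467 in UTX TCD libraries (adjusted p = 0.0451; above 0.05 without UTX TCD replicate 2 or 3 or WT replicate 1 or 3, without a filter, with the libraries scaled to the same sum and with depth as a term, at 0.0553 to 0.173). *Ptcra*, the pre-receptor chain of immature thymocytes, had at most 1.97 normalized counts in any library.

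Lists of pathway genes around the core were read as well. Of 6 coreceptor, adhesion and phosphatase partners, 2 were lower and 1 higher at an adjusted p under 0.05 (33.3% and 16.7%, against 20.5% and 20.2% of all genes tested; 1 or 2 lower and 0 or 1 higher over the alternatives), and the median log2 fold change was -0.18 against -0.00 for all genes tested. The genes named from here on that missed the fold limit were chosen after their values were seen. *Cd2*, an adhesion receptor, fell from 70704, 57344 and 69765 in WT to 49437, 49257 and 42214 in UTX TCD libraries (log2 fold change -0.49), while *Cd28*, the costimulatory receptor, rose from 29072, 32991 and 30367 to 34650, 35951 and 40119 (0.26, adjusted p = 0.0127; 0.0536 without WT replicate 1). *Cd4* was low in all libraries at 41.3 to 104 counts, and its lower value in UTX TCD libraries (log2 fold change -0.74, adjusted p = 0.0384), past both limits, was lost without any one of 5 libraries (all but UTX TCD replicate 2, adjusted p from 0.0619 to 0.101), by DESeq2, without a filter, with the libraries scaled to the same sum and with depth as a term (0.0543 to 0.0673). This list had 1 gene past both limits, 2 without UTX TCD replicate 2 or WT replicate 2, and 0 without a filter, with the libraries scaled to the same sum, by DESeq2, with depth as a term, and without UTX TCD replicate 3 or WT replicate 1 or 3. *Ptprc* (CD45), the phosphatase that primes LCK, overlapped at 536663 to 577391 in WT libraries and 534010 to 558627 in UTX TCD libraries.

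Among other kinases of the receptor, *Fyn* and *Txk* did not pass; with the libraries scaled to the same sum, *Fyn* (adjusted p = 0.0438) and *Txk* (adjusted p = 0.0317) did. *Tec*, a kinase that acts on phospholipase Cγ, was counted at 3597, 2993 and 3648 in WT libraries and 1595, 1570 and 1801 in UTX TCD libraries, with the highest UTX TCD library far below the lowest WT library (log2 fold change -1.04, adjusted p = 3.73e-05, SE 0.09). *Syk*, which takes the place of ZAP-70 in B cells and early thymocytes, went the other way, from 23.8, 27.6 and 20.6 to 87.7, 60.1 and 87 (log2 fold change 1.65, adjusted p = 0.00122, SE 0.27). All 3 UTX TCD libraries were above WT, at levels far under those of *Zap70*. *Syk* had 5 listed peaks, all higher in UTX TCD cells by 0.35 to 1.18 on the log2 scale, and *Tec* had 2, at -0.48 and 0.63.

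The LAT and SLP-76 signalosome list held 21 genes, of which 10 were lower and 3 higher at an adjusted p under 0.05 (47.6% and 14.3%, against 20.5% and 20.2% of all genes tested), with a median log2 fold change of -0.09. The lower count was 4 with the libraries scaled to the same sum and 5 to 10 with 1 library left out, 5 without UTX TCD replicate 1 and 6 without WT replicate 1 or 3; it was 8 without a filter or with the replicate number as a block. *Trat1* passed both limits, the 1 gene here to do so (2 did without UTX TCD replicate 1 or without WT replicate 2). Its product TRIM is a transmembrane adaptor that associates with the receptor and its ζ chain, and it was counted at 5909, 8100 and 5153 in WT libraries and 1761, 1711 and 2181 in UTX TCD libraries. The highest UTX TCD library was less than the lowest WT library, and the log2 fold change was -1.74 (adjusted p = 4.18e-05, SE 0.16). *Trat1* had 7 listed peaks, all lower in UTX TCD cells, by differences from -1.92 to -0.58. Smaller decreases included *Skap1* (log2 fold change -0.48), *Themis* (-0.30) and *Was* (-0.26), and the increases were *Sh2d2a* (0.37), *Wipf1* (0.19) and *Grap* (0.14; lost without WT replicate 1 or UTX TCD replicate 1 or 2, adjusted p from 0.0593 to 0.085). *Plcg1*, *Vav1* and *Grap2* (GADS), which bind LAT or SLP-76 directly, overlapped between genotypes.

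In the downstream branches, 6 of 22 genes were lower and 4 higher at an adjusted p under 0.05 (27.3% and 18.2%, against 20.5% and 20.2% of all genes tested; 5 to 8 lower and 4 higher over the alternatives), none past the fold limit, with a median log2 fold change of -0.07. The inositol trisphosphate receptor gene *Itpr2* came closest, rising from 58985, 59683 and 59515 to 80908, 81527 and 89711 (log2 fold change 0.50, adjusted p = 7.75e-05). With the libraries scaled to the same sum, with TMM scaling, or by edgeR or DESeq2, 1 gene of this list passed the fold limit. So did 1 without UTX TCD replicate 1 or 2 or WT replicate 3, and 2 without WT replicate 2. *Itpr1* rose too (0.31), as did *Tespa1* (0.39), which links these receptors to the signalosome, and *Map2k1* (0.20). *Orai2*, a calcium channel subunit, fell (-0.45), as did *Malt1* (-0.42), *Rasgrp1* (-0.23) and *Bcl10* (-0.20).

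Adaptors with ITAM or related motifs that serve other receptors were also read. *Cd79b*, the Igβ chain of the B cell receptor, fell from 2502, 1930 and 2465 in WT to 648, 633 and 470 in UTX TCD libraries (log2 fold change -1.98, adjusted p = 1.47e-05, SE 0.15). *Hcst* (DAP10), the partner of NKG2D, fell from 3745, 3085 and 3099 to 1871, 1482 and 1496 (log2 fold change -1.04, adjusted p = 0.000113, SE 0.11). In both genes every UTX TCD library lay below every WT library. Each had 1 listed peak, lower in UTX TCD cells, by -1.24 at *Cd79b* and -0.35 at *Hcst*. *Cd79a* at 285 to 526, *Tyrobp* (DAP12) at 92.1 to 159 and *Fcer1g* at 4.8 to 22.5 counts did not pass; *Cd79a* did with depth as a term (adjusted p = 0.0369).

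Markers of other cells were read beside these results. Of the B cell markers, *Ighm* was the most abundant at 81282 to 111647, while others were low, *Ms4a1* at 5.94 to 73, *Pax5* at 0 to 11.1 and *Igkc* at 23.6 to 117. Among them, 2 were lower (*Cd79b* and *Ighm*) and 3 higher (*Cd22*, *Ms4a1* and *Igkc*) at an adjusted p under 0.05. *Cd22* rose from 79.2, 102 and 79.3 to 277, 247 and 502. The calls of *Ighm* and *Ms4a1* were lost without UTX TCD replicate 2 or 3 or WT replicate 1 or 3 and with depth as a term, that of *Ighm* also with the libraries scaled to the same sum (adjusted p from 0.0818 to 0.146 and from 0.0681 to 0.119), and that of *Igkc* without WT replicate 3 (0.0517). Of the 4 CD8 mediator markers, 3 were lower, and the sum of the 4 was 212026, 170157 and 208457 in WT libraries and 59469, 60309 and 49305 in UTX TCD libraries. The most abundant was *Thy1*, at 169977, 135061 and 163387 against 34422, 33235 and 21887, with *Nkg7* lower as well (log2 fold change -0.46) and *Entpd1* not passing. Whether a change in the share of mediator-like cells had a part in the receptor genes' differences was not tested.

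Of the progenitor markers, led by *Tcf7*, 2 were higher, *Ikzf2* (log2 fold change 0.78, adjusted p = 0.00662) and *Myb* (0.48, adjusted p = 0.0401; lost at 0.0589 to 0.113 without UTX TCD replicate 3 or WT replicate 1 or 3, by DESeq2, and with the replicate number as a block or depth as a term). *Id3* did not pass, although it did without WT replicate 2 (adjusted p = 0.0358). CD4 T cell markers summed to 369 to 518 over all libraries, led by *Foxp3* at 235 to 317, and 2 of 4 were lower (*Cd4* and *Zbtb7b*). The 8 myeloid and dendritic markers summed to 773 to 1206, led by *Cd68* at 544 to 972, with *Csf1r* lower, *Cd68* higher (lost without any library but UTX TCD replicate 2, adjusted p from 0.0529 to 0.12), and 3 genes under 10 counts throughout. NK markers summed to at most 55.3, led by *Klrb1c* and with *Ncr1* at 0 to 6.93. Immature thymocyte markers came almost only from *Dntt* (114 to 462, lower in UTX TCD; lost without WT replicate 1 or 3 and with depth as a term, adjusted p 0.0607, 0.0624 and 0.0534), with *Rag1* and *Rag2* at 3.95 or less. In the γδ list, led by *Trdc*, *Sox13* rose from 1860, 1672 and 1788 to 5266, 5192 and 5127 (log2 fold change 1.55, adjusted p = 2.32e-07). *Pecam1* at 29365 to 37236 led the stroma, islet and blood list and was higher in UTX TCD cells (adjusted p = 0.0114; 0.0517 without UTX TCD replicate 2), with *Ins2* at 0 in all 6 libraries, which 3 reads limit to between 2.21 and 6.75 normalized counts, and *Col1a1* at 254 to 475. The part of these cells in the receptor results was not tested.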

How the data were processed

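RNA-seq and ATAC-seq libraries, 3 per genotype and assay, were grouped by genotype from their labels. For RNA-seq, the authors aligned reads to mm10 with HISAT2 2.2.1, counted them per gene with featureCounts and deposited the normalized signal, that is counts divided by a DESeq2 size factor per library; annotation and strand setting were not stated. For ATAC-seq, the authors used Cutadapt, Bowtie2, Picard, MACS2 and DiffBind, and deposited a log2 mean concentration per genotype for each of 23932 listed peaks. The deposited fold changes, p-values and FDR were not used, except to check that 0 listed peaks had an FDR of 0.05 or more. A shift for the transposase was not stated.

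Whole reads were recovered from 100% of values (tolerance 0.1 of a read). Genotypes were compared with limma 3.58.1 (R 4.3.3, trend) on log2(normalized count + 1) over the 14459 genes with a mean of at least 10, with Benjamini-Hochberg adjustment. Fold changes on this scale understate those of low genes. The planned test allowed for counts; as the values were normalized, the log-scale test was kept. On recovered reads, edgeR 4.0.16 called 2541 genes and DESeq2 1.42.0 called 2422 (adjusted p under 0.05, absolute log2 fold change over 0.5). An exact permutation test of 3 against 3 libraries cannot go below 0.10. The study's text counts 3 mice per genotype for ATAC-seq and 3 per group for RNA-seq; the labels tie no RNA-seq library to an animal, so if libraries share animals the p-values measure only the spread between libraries. Floors of 3 reads cover counting error only. Sequences and gene models are from RefSeq, GRCm38.p6.

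The 10 genes and all lists were chosen with earlier results of these data known. Genes were named by a rule set beforehand: the 10 genes, *Kdm6a*, gate and progenitor or mediator markers, all receptor chains and ITAM adaptors, genes of other lists past both limits, the leading gene of each marker list, and flanking genes. Other genes named in the text fall outside this rule and were chosen after their values were seen. Some genes that this rule covers, and a peak assigned to one of them, are not reported here. Alternatives were other pseudocounts, filters, scalings, tests and fold limits, a replicate block, each library left out, and a term for depth.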

Additional observations from a re-analysis of the deposited data

How the results depend on the processing

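None of the 10 receptor genes changed direction in the 16 alternatives, and *Cd3d*, *Cd3g*, *Cd8b1*, *Zap70* and *Lat* passed the adjusted p in all 16. For the 9 genes whose genotypes did not overlap, leaving out a library or changing the pseudocount or the filter could not have reversed the direction. With the libraries scaled to the same sum, which moved the median log2 fold change of all genes by 0.06, 4 of the 10 were lower in place of 7 and 3 higher in place of 2; the cause was not tested. Leaving out 1 library at a time gave 4 to 7 lower and 1 to 3 higher; 4 were lower without WT replicate 1 or 3, and 1 was higher without any library but UTX TCD replicate 3. Of the 29 listed peaks, 6 lay within 1 kb of the assigned start, all higher (of all 2621 listed peaks annotated as promoter, 85.3% were higher), 9 differed by over 0.5 on the log2 scale (5 higher and 4 lower) and 1, higher, by over 1. A larger set, all listed peaks within 50 kb of a gene body, held 42, of which 13 were assigned to other genes, with 21 higher and 21 lower. Same-numbered libraries shared deviations weakly (r of 0.31, -0.20 and 0.09), not every library correlated best with its own number, and the numbers do not pair them; with the replicate block 2474 genes passed both limits in place of 2538, and 6 of the 10 genes were lower and 2 higher. A term for depth, chosen after seeing the data, gave 6 lower and 2 higher. The UTX TCD library of 61512402 reads limits low genes most, with 3 reads worth 6.75 normalized counts.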
